A study of Mus musculus with 22 samples.

Results

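Among 13 lymphomas that arose in Eμ-Myc mice, 3 carried a measurable level of Cdkn1a, the gene of the cyclin-dependent kinase inhibitor p21, and 10 did not. The groups were selected on the measured level of Cdkn1a: the Cdkn1a-high arrays were those, of 22 in the series, on which its brightest probe set exceeded a log2 intensity of 4, the level taken here as the lower limit of a measurable signal. They were lymphomas 1, 6 and 8, numbered as the labels number the biological replicates, and the other 10 lymphomas are called Cdkn1a-low. Gtse1, a p53 target that acts in the G2 phase, was the single gene of 6191 tested that passed the test between these groups, and it was 2.38-fold higher in the Cdkn1a-high lymphomas. That call lay near the threshold (adjusted p = 0.0476) and held in 9 of 30 fits, and it was lost on removal of any 1 of 12 of the 13 lymphomas. With no filter on dim genes, 6 of 67 p53 targets were higher at an unadjusted p under 0.05, beside 1.67% of all genes, and 0 were lower, beside 1.4%.

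The study profiled B cells of the C57Bl/6 strain on Affymetrix MOE430A arrays, 1 per sample: 4 of wild type B220+ cells, 5 of premalignant B220+ cells with the Eμ-Myc transgene, and 13 of malignant Eμ-Myc B cells. The Eμ-Myc transgene places Myc under an immunoglobulin heavy chain enhancer, so that it is active in the B lineage. The cells of both non-malignant groups were taken from littermates aged 4 to 6 weeks, and each lymphoma came from a different mouse. All B cells were isolated on magnetic beads with antibodies to B220 or IgM from bone marrow or spleen, and the labels do not assign a tissue or a bead to single arrays. Both groups compared below share the strain and the transgene, and whether they differ in tissue, bead or age of the mice is not known. They were split on a measured value, so each test reads an association across lymphomas. In bulk RNA of this kind, fewer cells that express a gene and less RNA per cell cannot be told apart.

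The transcription factor p53 is stabilised after DNA damage and after oncogene stress, including excess Myc, which acts through the Arf product of Cdkn2a on the p53 inhibitor Mdm2. Active p53 binds DNA as a tetramer at paired copies of a short motif and raises the transcription of genes that stop the cell cycle, trigger apoptosis, aid repair, or restrain p53 itself. Cdkn1a is its best known arrest target, and Myc can repress Cdkn1a. Eμ-Myc lymphomas are known to lose the Arf-p53 pathway often, and the levels of several targets together have been used to read whether p53 is active.

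The p53 half-site consensus is the 10-base motif to which a pair of p53 subunits binds. It was looked for gene by gene in Cdkn1a, Gtse1, Ccng1, Mdm2, Slc19a2 and Bbc3, a choice that left out Pmaip1. Zmat3 has no entry in the promoter table. The promoters of Cdkn1a, Gtse1, Ccng1 and Mdm2 hold at least 1 copy. They are printed from the RefSeq promoter table on build GRCm38.p6, 5′ to 3′ on the strand of the gene, with the matches in capitals. The Cdkn1a stretch lies at chr17:29090866-29090977 on the plus strand and holds 2 matches 12 bases apart. They begin at −73 and −51 relative to the first of its annotated starts. The window of its other start, chr17:29093519-29093818, lies further downstream. The Gtse1 stretch, chr15:85859945-85859974 on the plus strand, has its match at 9 bases after the second of its annotated starts. The Ccng1 stretch, chr11:40755422-40755511, and the Mdm2 stretch, chr10:117710895-117710984, are on the minus strand, and their matches begin at −185 and −186.
Cdkn1a: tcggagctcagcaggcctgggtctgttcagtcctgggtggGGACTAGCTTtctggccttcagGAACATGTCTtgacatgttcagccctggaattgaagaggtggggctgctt
Gtse1: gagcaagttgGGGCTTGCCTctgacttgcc
Ccng1: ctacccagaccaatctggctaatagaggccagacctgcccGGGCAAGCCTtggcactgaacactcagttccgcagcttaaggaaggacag
Mdm2: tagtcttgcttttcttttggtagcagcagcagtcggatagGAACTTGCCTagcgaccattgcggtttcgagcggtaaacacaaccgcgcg
The consensus is its own reverse complement, so 1 search covers both strands, and overlapping matches were counted. Windows of 300 bases, from 250 before to 50 after the start, were searched. At least 1 match was found in 2745 of all 32851 promoter windows (8.36%) and in 20 of the 93 windows of the p53 targets listed here (21.5%). A pair of half-sites separated by at most 13 bases was found in 24 of all windows (0.0731%) and, among the p53 targets, in 1 window, that of Cdkn1a. The other Cdkn1a window, the first Gtse1 window and the windows of Slc19a2 and Bbc3 hold no match to these letters. Targets may be bound outside these windows, and a match is not a bound site.

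Cdkn1a chose the groups, so its values are given without a test. Its log2 intensity was 5.29 in lymphoma 1, 4.75 in lymphoma 8 and 4.30 in lymphoma 6. In the Cdkn1a-low lymphomas it ran from 3.11 to 3.57 with a median of 3.35, and the arrays closest to the threshold were lymphoma 4 at 3.57 below it and lymphoma 6 above it. No array lay between these, and lymphoma 1 stood highest. The means were 4.78 ± 0.49 (SD, n = 3) and 3.38 ± 0.14 (SD, n = 10). The Cdkn1a-low level was also that of normal and premalignant B cells, at 3.21 to 3.60 in wild type and 3.18 to 3.33 in premalignant arrays. A second Cdkn1a probe set read 3.25, 2.16 and 2.44 in lymphomas 1, 6 and 8 against a mean of 2.09 in the others, under log2 4 on every array, and so gives no level.

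The comparison of all other genes asked which of them differ between lymphomas with and without Cdkn1a. A gene entered the test when its probe set exceeded log2 4 on at least 3 of the 13 lymphomas, and it passed when its p from limma (two-sided), adjusted by Benjamini and Hochberg's method across the 6191 genes, was under 0.05. Gtse1 alone passed (0.0162% of the genes tested). At an unadjusted p under 0.05, 125 genes were higher in the Cdkn1a-high lymphomas (2.02%) and 63 were lower (1.02%). The 3 arrays lay wholly above the other 10 for 9 genes (0.145%) and wholly below for 7 (0.113%). The median log2 difference over all genes was 0.02, with 3336 of 6191 above 0. Lymphoma 1 stood apart from the other arrays: its mean correlation with them, 0.903, was the lowest of the 13 (at least 0.909 in the Cdkn1a-low group), and on the second principal component of the lymphomas (16.3% of their variance) it was at −42.05 against −18.69 to 23.75. Without it, 0 genes passed with limma, 60 were higher and 21 lower at an unadjusted p under 0.05, and Gtse1 differed by 1.28 (adjusted p = 0.378).

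**Figure D1:**
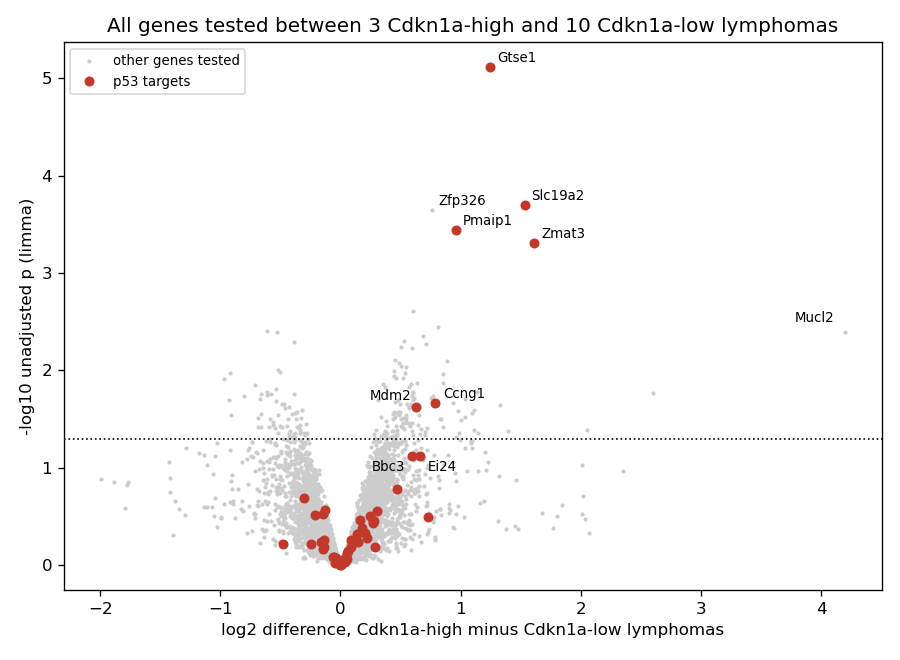
Log2 difference between the means of 3 Cdkn1a-high and 10 Cdkn1a-low lymphomas (horizontal) against −log10 of the unadjusted limma p (vertical), 1 point per gene tested and p53 targets in red. The dotted line marks an unadjusted p of 0.05. Gtse1 stands highest at limma's p = 7.68e-06, followed by the p53 targets Slc19a2 and Pmaip1 and by Zfp326, which is not in the list. Zmat3 entered the test through the Cdkn1a-high arrays alone, and Slc19a2 would not have entered without them.

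The p53 targets were a list of 79 genes besides Cdkn1a. Of these, 67 had a probe set that names them alone, 12 did not and are not analysed here, and 47 passed the filter. Gtse1 was called higher and 0 targets were called lower, beside the 0.0162% called over all genes. At an unadjusted p under 0.05, Gtse1, Slc19a2, Pmaip1, Ccng1 and Mdm2 were higher, beside 2.02% of all genes, and 0 of 47 were lower, beside 1.02%. Gtse1 and Pmaip1 were above all Cdkn1a-low lymphomas on all 3 Cdkn1a-high arrays, beside 0.145% of all genes, and so was Zmat3. The median log2 difference over the 47 was 0.09, and 31 were above 0. Zmat3 passed the filter only through the Cdkn1a-high arrays and had to differ, so it is not named among the higher targets. Slc19a2 also needed those arrays to pass, beside 1 Cdkn1a-low lymphoma above log2 4, and it is named with that limit. The counts were also read with no filter, Zmat3 and Slc19a2 included: 6 of 67 targets were higher, beside 1.67% of 12392 genes. None were lower, beside 1.4%, and the median was 0.03. No set test was run, and most targets differed little: the difference lay in a few members.

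**Figure D2:**
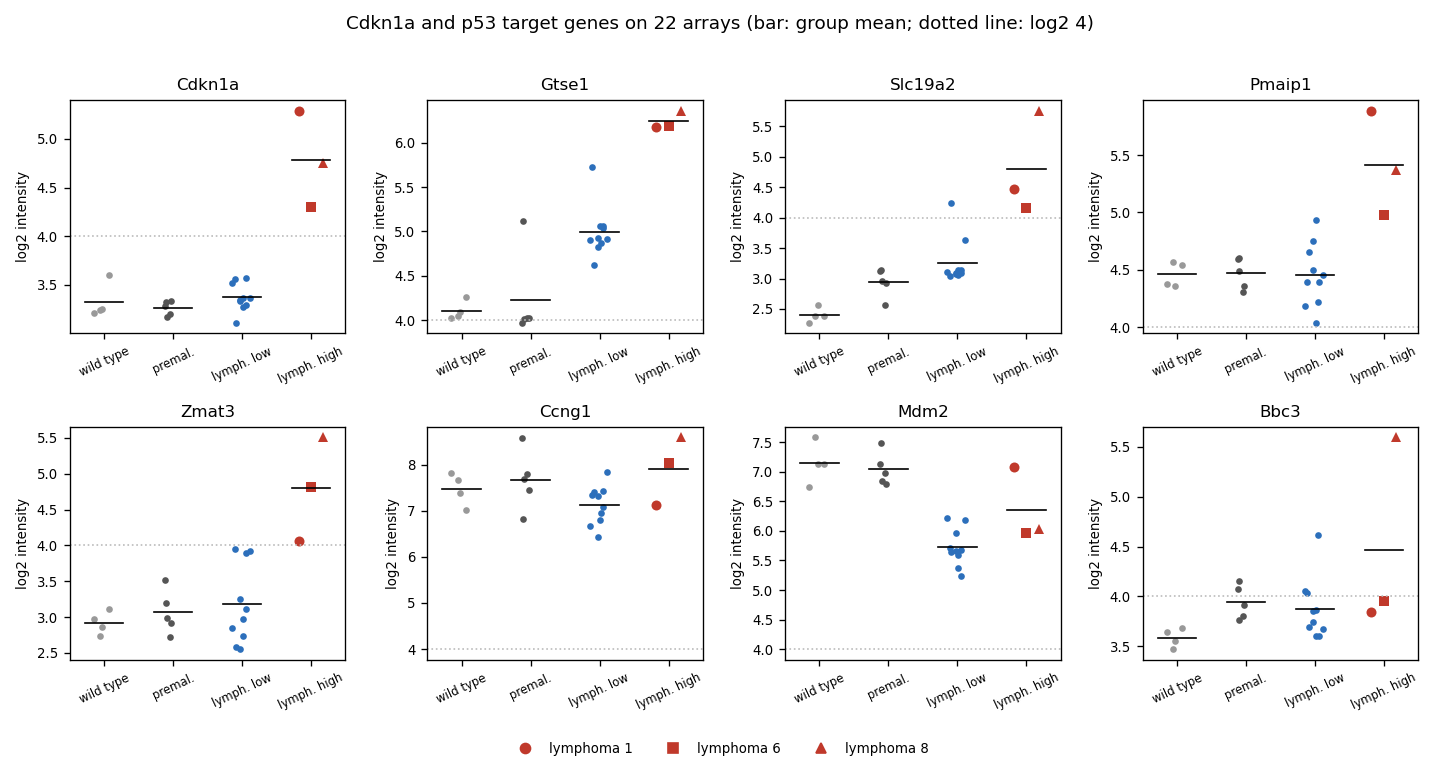
Log2 intensity of Cdkn1a and 7 p53 targets on all 22 arrays, by group: wild type (4), premalignant (5), Cdkn1a-low lymphomas (10) and Cdkn1a-high lymphomas (3, with a symbol for each). Bars are group means and the dotted line is log2 4. The 3 Cdkn1a-high arrays lie above all Cdkn1a-low arrays for Gtse1, Pmaip1 and Zmat3, while single arrays are high for Mdm2 (lymphoma 1) and Bbc3 (lymphoma 8).

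Among the arrest targets, Gtse1, a microtubule-associated protein of the S and G2 phases that also carries p53 out of the nucleus, read 6.18, 6.19 and 6.36 on log2 scale in lymphomas 1, 6 and 8. In the Cdkn1a-low lymphomas it ran from 4.62 to 5.73 with a median of 4.92. The 3 values lay within a narrow band above all others, and lymphoma 13 was the nearest. The means were 6.24 ± 0.10 (SD, n = 3) and 4.99 ± 0.29 (SD, n = 10), a difference of 1.25 (SE 0.18) with limma's adjusted p = 0.0476. Gtse1 was 4.03 to 4.26 in wild type arrays, below all lymphomas, and 3.97 to 5.12 in premalignant arrays, of which the highest lay within the Cdkn1a-low range. The call rested close to the threshold. It was lost without any single one of replicates 1 to 12 (adjusted p 0.0709 to 0.378) and was kept without replicate 13 (0.000549), while the difference stayed between 1.19 and 1.33.

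Gtse1 is also a cell cycle gene, and 29 further genes of mitosis had a median difference of 0.02, with 0 called. Their mean log2 level was 7.36 to 7.79 in the Cdkn1a-high and 7.12 to 7.81 in the Cdkn1a-low lymphomas. The part of the cell cycle in the Gtse1 difference was not tested. The other arrest targets tested did not pass. Btg2, an antiproliferative factor, differed by −0.25, the nuclear body protein Pml by −0.14, Ckap2, a spindle protein, by 0.09, and Trp53inp1, a cofactor of the p53 response, by 0.01. Btg2 was lower in all 13 lymphomas (5.63 to 8.23) than in any wild type or premalignant array (9.12 to 9.70). Gadd45a, a growth arrest gene, did not pass the filter and read 3.00 to 3.59 in the lymphomas against 3.78 to 5.23 in the other arrays. Plk2, an arrest target with a level above log2 4 in 4 of the 5 premalignant arrays, was filtered too, and lymphoma 1 at 4.28 was the 1 lymphoma above 2.82.

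Among the targets that feed back on p53, Zmat3, an RNA-binding zinc finger protein, read 4.06, 4.81 and 5.51 in lymphomas 1, 6 and 8. The Cdkn1a-low lymphomas ran from 2.55 to 3.95 with a median of 3.04. All Cdkn1a-low, wild type (2.73 to 3.11) and premalignant (2.73 to 3.51) arrays were under log2 4, which made it the only gene tested that exceeded this level on Cdkn1a-high arrays alone. Against that limit the Cdkn1a-high mean was at least 1.74-fold higher. No test is given for Zmat3, because the filter let it in only through the group where it was high.

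Ccng1, a cyclin that brings a phosphatase to Mdm2, read 7.12, 8.03 and 8.60, against 6.44 to 7.84 with a median of 7.20. Lymphomas 6 and 8 were above all Cdkn1a-low arrays and lymphoma 1 was within their range. The difference was 0.79 (SE 0.30, 1.72-fold, unadjusted p = 0.0216, adjusted p = 0.988), and without lymphoma 8 it was 0.44. Both other Ccng1 probe sets gave a difference of similar size. The first read 6.03, 5.95 and 5.99 against a mean of 5.03, with groups that did not overlap (unadjusted p = 0.013), and the second read 5.34, 5.73 and 6.04 against 4.59 (0.0029).

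Mdm2, the ubiquitin ligase that degrades p53 and is itself a p53 target, read 7.08, 5.96 and 6.04, against 5.23 to 6.22 with a median of 5.67. Lymphoma 1 alone stood apart, and it was the only lymphoma within the range of wild type (6.75 to 7.59) and premalignant arrays (6.79 to 7.49). The difference was 0.63 (SE 0.25, 1.55-fold, unadjusted p = 0.0235, adjusted p = 0.988), and it was 0.27 without lymphoma 1. Another Mdm2 probe set was also highest there, at 5.35, 4.56 and 4.60 against a mean of 4.45. The other feedback members did not pass: Trim24, a p53 ubiquitin ligase, differed by 0.47, Rchy1 by 0.20, Mdm4, the Mdm2 partner, by −0.03, the phosphatase Ppm1d by −0.13, and Cop1 by −0.14. The 8 feedback targets, Zmat3 included, had a median of 0.34, which would be lower without Zmat3. Ccng1 and Mdm2 were higher at an unadjusted p under 0.05 with limma, beside 2.02% of all genes, and Zmat3 is not counted.

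Of the apoptosis targets, Pmaip1, the BH3-only protein Noxa that blocks Mcl1, read 5.89, 4.98 and 5.37 in lymphomas 1, 6 and 8. The Cdkn1a-low lymphomas ran from 4.04 to 4.93 with a median of 4.42. The groups did not overlap, although lymphoma 6 lay just above the highest Cdkn1a-low array. The level was 1.95-fold higher (difference 0.96, SE 0.21, unadjusted p = 0.000363, adjusted p = 0.562). Wild type (4.36 to 4.57) and premalignant arrays (4.30 to 4.61) were at the Cdkn1a-low level.

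Bbc3, the BH3-only protein Puma, was high in lymphoma 8 alone, at 5.60 against 3.85 and 3.96 in lymphomas 1 and 6 and 3.60 to 4.61 in the Cdkn1a-low group. Its difference of 0.59 (adjusted p = 0.988) became 0.03 without lymphoma 8. Ei24, an endoplasmic reticulum protein of the p53 response, read 7.14, 7.20 and 6.88 against 4.89 to 7.10 with a median of 6.47 (difference 0.66, unadjusted p = 0.0755). Aen, an apoptosis nuclease, read 5.91, 7.25 and 7.68 against 6.14 to 7.00, so that lymphoma 1 was the lowest and lymphomas 6 and 8 the highest of all 13. Apaf1, which assembles the apoptosome, differed by 0.18, Pidd1 by 0.09, Bid by 0.04, Siva1 by −0.14 and Casp8 by −0.14. Dram1, a lysosomal protein of p53-induced autophagy, was above log2 4 in lymphomas 3, 6 and 7 and at 2.54 and 2.97 in lymphomas 1 and 8, so it did not follow Cdkn1a. The 11 apoptosis targets tested had a median of 0.18. Fas, the death receptor, did not pass the filter and was at most 4.01 in any lymphoma.

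Slc19a2, the high-affinity thiamine transporter, was the p53 target with the second smallest p of the genes tested. It read 4.48, 4.16 and 5.75 against 3.04 to 4.24 with a median of 3.10, and lymphoma 5 was the 1 Cdkn1a-low array above log2 4 and overlapped lymphoma 6. The difference was 1.53 (SE 0.31), but most Cdkn1a-low values lay under the measurable level. Slc19a2 reached the 3 lymphomas above log2 4 that the filter asks for only with the Cdkn1a-high arrays. Its limma values (unadjusted p = 0.000199, adjusted p = 0.462) are therefore not read as support. With all values floored at log2 4 the difference was 0.77 with an adjusted p of 0.981, and Slc19a2 ranked 13 by p; with no filter it ranked 5. Slc19a2 was lower in wild type (2.27 to 2.56) and premalignant arrays (2.56 to 3.14). In a fit of all 4 groups with 1 shared spread, Slc19a2 and Pmaip1 passed beside Gtse1 (adjusted p = 0.0198 and 0.0319), as did Zfp326. None of these but Gtse1 passed in the fit of the lymphomas alone. Without lymphoma 8, the array with the highest Slc19a2 and Gtse1, the difference of Slc19a2 was 1.06.

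Repair and metabolic targets gave no call. Of 6 repair targets, 0 reached an unadjusted p under 0.05 and the median was 0.06: the damage recognition proteins Ddb2 and Xpc differed by −0.21 and −0.00, the sliding clamp Pcna by 0.06, and the ribonucleotide reductase subunit Rrm2b by 0.05. Ercc5, a nucleotide excision nuclease, was highest in lymphoma 8 (4.92) and lowest in lymphoma 1 (3.19). Of 7 metabolic targets, again 0 reached that level and the median was 0.16: the antioxidant regulator Sesn1 differed by 0.04, the respiratory chain assembly factor Sco2 by 0.16, glutathione peroxidase Gpx1 by 0.27, and Phlda3, an Akt repressor, by 0.25. Ddit4, an mTORC1 inhibitor, read 7.20, 6.23 and 8.80 against 4.79 to 8.33. The 10 further targets had a median of 0.00, with Slc19a2 the 1 below an unadjusted p of 0.05. Dgka, a diacylglycerol kinase, and Crip2 were high in lymphoma 6 (9.07 and 7.30) and low in lymphomas 1 (4.77 and 4.76) and 8 (5.74 and 4.88). Epha2, a receptor tyrosine kinase, was filtered and exceeded 3.00 in lymphoma 6 alone, at 4.29.

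**Figure D3:**
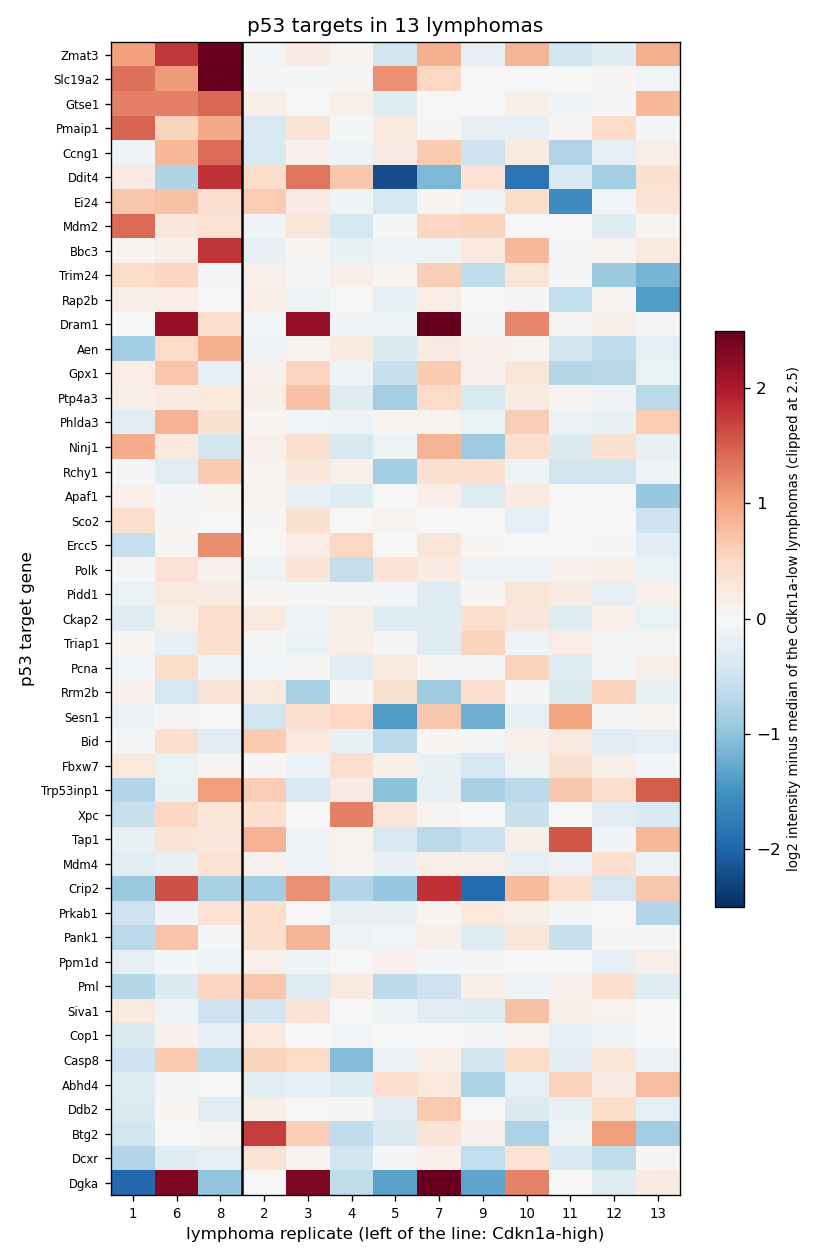
Log2 intensity of the 47 p53 targets tested in each of 13 lymphomas, minus the median of the 10 Cdkn1a-low lymphomas (colour, clipped at 2.5); genes are ordered by their difference between groups and lymphomas 1, 6 and 8 stand left of the line. The top rows Zmat3, Slc19a2, Gtse1 and Pmaip1 are red in all 3 Cdkn1a-high arrays, and most rows show no common colour there.

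The 3 Cdkn1a-high lymphomas were not alike over the targets. Of the 47 targets, lymphoma 8 had the highest level of all 13 arrays for 10, lymphoma 6 for 6 and lymphoma 1 for 4, and the Cdkn1a-low lymphomas 2 and 7 had it for 6 and 5. Above the Cdkn1a-low median were 33 targets in lymphoma 6, 30 in lymphoma 8 and 20 in lymphoma 1, although lymphoma 1 had the most Cdkn1a. The Cdkn1a-low lymphomas 7, 2 and 10 had 33, 30 and 30, so this count did not set the groups apart. Among 14 further probe sets of the targets, 3 were higher at an unadjusted p under 0.05 and 0 were lower, beside 198 higher of all 9355 probe sets tested. Those 3 belong to Ccng1 and Mdm2, which are already named above, so they add no further target gene. When every probe set was tested on its own, 0 passed the adjusted threshold with limma, while the 198 were those higher at an unadjusted p under 0.05, and Gtse1 had an adjusted p of 0.0717.

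Upstream of p53, Cdkn2a, which encodes Arf and p16, was under log2 4 on every array and was not tested. Lymphoma 8 had the highest value, 3.57, and the other 12 lymphomas ran from 2.19 to 2.52. Of 11 regulators of p53 tested, 0 reached an unadjusted p under 0.05 and the median was −0.06. The deubiquitinase Usp7, which acts on Mdm2 and p53, had the smallest p of them, with 9.24, 9.15 and 9.48 against 9.14 to 9.75 (difference −0.20, p = 0.188). The gene of p53 itself is not analysed here.

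Myc, the driver of these lymphomas, overlapped between the groups. It read 10.05, 8.85 and 9.79 in the Cdkn1a-high and 8.67 to 10.76 in the Cdkn1a-low lymphomas (difference −0.03, SE 0.37, adjusted p = 0.997), against 6.74 to 7.39 in wild type arrays. Of 8 genes of the Myc network, 0 reached an unadjusted p under 0.05, and Mnt, a Max partner that opposes Myc, differed by −0.37 (p = 0.265). Of 15 regulators that act on Cdkn1a by other routes, 1 was higher at an unadjusted p under 0.05, beside 2.02% of all genes. This was Hdac2, a histone deacetylase known to repress Cdkn1a. It read 7.55, 7.52 and 6.87 against 5.89 to 7.10 (difference 0.59, limma's unadjusted p = 0.0233, adjusted p = 0.988). Lymphomas 1 and 6 were above all Cdkn1a-low arrays and lymphoma 8 was within them.

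Genes of the cyclin-dependent kinases, DNA replication and mitosis showed no difference that passed. The arrays read RNA, and inhibition by the p21 protein was not tested. Over all genes, 2.02% were higher and 1.02% lower at an unadjusted p under 0.05. Of 14 cyclins, cyclin-dependent kinases and their inhibitors, 0 reached an unadjusted p under 0.05 and the median was 0.06. Cdk2, the kinase p21 inhibits at the entry into S phase, had the smallest p and read 6.28, 7.16 and 6.65 against 6.57 to 7.34 (difference −0.27, p = 0.18, and −0.07 without lymphoma 1). Of 30 DNA replication genes, 1 was higher and 0 were lower at an unadjusted p under 0.05 (median 0.09). That gene, Rfc3, a subunit of the clamp loader, read 6.46, 6.04 and 5.37 against 4.71 to 5.68 (difference 0.71, p = 0.00537, and 0.46 without lymphoma 1). Of 29 mitosis genes, 0 were higher and 1 was lower (median 0.02). Nusap1, a spindle protein, read 6.10, 7.78 and 7.79 against 7.60 to 8.51 (difference −0.80, p = 0.0185), and only lymphoma 1 was below the range of the Cdkn1a-low lymphomas. Without it the difference was −0.24.

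Growth and stress programmes gave no call either. The counts below stand beside 2.02% of all genes higher and 1.02% lower at an unadjusted p under 0.05. Of 29 ribosome biogenesis genes, Ncl, the nucleolar protein nucleolin, was the 1 below an unadjusted p of 0.05, at 12.73, 12.52 and 12.53 against 11.83 to 12.42, with groups that did not overlap (difference 0.45, p = 0.00779, adjusted p = 0.988). The median of that list was 0.10. Of 17 ATF4 targets and unfolded protein genes, 2 were higher and 0 lower (median 0.17), among them the chaperone Hsp90b1 with 9.25, 10.25 and 9.60 against 8.66 to 9.74 (difference 0.53, and 0.25 without lymphoma 6). Of 7 hypoxia genes, 1 was higher, the mitochondrial protein Higd1a, at 7.19, 8.59 and 7.96 against 6.89 to 7.60 (difference 0.55, and 0.21 without lymphoma 6; median of the list −0.05). Of 14 further DNA repair genes, 1 was higher and 2 were lower. The Fanconi gene Fanca had the smallest p there, at 5.56, 5.96 and 6.72 against 6.36 to 7.00 (difference −0.52, p = 0.0286, and −0.27 without lymphoma 1).

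Counts of 0 in both directions at an unadjusted p under 0.05 were found for 13 glycolysis genes (median 0.07), 6 of the BCL2 family (0.15), 7 of the interferon response (−0.08), 10 NF-kB and immediate early genes (0.01), 14 of lysosome and autophagy (0.03) and 8 TGF-beta and senescence genes (0.18). Igfbp3, a secreted binder of insulin-like growth factors found in senescent cells, read 7.37, 6.37 and 6.48 against 4.26 to 6.73 (difference 1.09, p = 0.0562). The lowest adjusted p in any list other than those of p53 targets was 0.988.

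The genes outside these lists whose groups did not overlap also missed the adjusted threshold. Zfp326, a zinc finger protein that couples transcription to splicing, read 4.71, 4.68 and 4.34 against 3.55 to 4.23 (difference 0.76, SE 0.15, unadjusted p = 0.000224, adjusted p = 0.462). With values floored at log2 4 its difference was 0.55. Znhit1, a subunit of a chromatin remodelling complex that exchanges histone H2A.Z, read 7.99, 7.73 and 7.66, against at most 7.63. Wac, an adaptor needed for histone H2B ubiquitination, read 7.94, 7.39 and 7.71 against at most 7.37. Pip4p2, a phosphoinositide phosphatase, and Gatad1, a chromatin zinc finger protein, differed by 1.13 and 0.61. The gaps between the groups were small beside the range within them.

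In the other direction, Glmp, a lysosomal membrane glycoprotein, read 5.56, 5.57 and 5.72 against 5.89 to 6.90 (difference −0.61, SE 0.18, unadjusted p = 0.0039, adjusted p = 0.988). It was higher in wild type (7.07 to 7.26) and premalignant arrays (6.42 to 6.76). Tyk2, a Janus kinase of cytokine receptors, read 5.19, 5.34 and 5.04 against 5.46 to 6.82 (difference −0.66, p = 0.0382). Dgat2, an enzyme of triglyceride synthesis, 3830406C13Rik and the Fanconi helicase Fancm lay near log2 4, with differences of −0.33, −0.39 and −0.59. Oxld1 and the elongation factor Eef1a2 each differed by −0.12, with gaps to the nearest Cdkn1a-low array of under 0.1.

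The 3 Cdkn1a-high lymphomas also differed in B cell stage. All expressed the B cell receptor chain Cd79a, which was 10.75 to 12.08 over the 13 lymphomas, and Cd79b, Ptprc and Ebf1 exceeded log2 4 in all 13. Pax5, a defining B lineage factor, was at most 2.65 in any lymphoma by its probe set. Lymphoma 1 alone of the 3 had the surrogate light chain of pre-B cells, with Igll1 at 12.22 and Vpreb1 at 10.62, while lymphomas 6 and 8 had Igll1 at 3.65 and 3.68. Lymphoma 6 had the recombinase gene Rag1 at 8.68 and lymphomas 1 and 8 had it at 3.10 and 3.55. Ms4a1, the mature B cell marker CD20, was 10.54 in lymphoma 8, 5.85 in lymphoma 6 and 4.64 in lymphoma 1. Il7r, the interleukin-7 receptor of early B cells, read 9.15, 7.49 and 4.46 against 3.04 to 7.72 (difference 2.01, p = 0.0934, and 0.95 without lymphoma 1). On the leading principal component of the 13 lymphomas (24.3% of their variance), lymphomas 1, 6 and 8 stood at −1.58, 26.49 and −18.39, apart from each other and within the range of the Cdkn1a-low arrays, while lymphoma 1 stood apart on the next one.

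Of 11 pro-B and pre-B genes, 7 mature B cell genes and 16 B cell receptor signalling genes, 0 reached an unadjusted p under 0.05 (medians 0.21, 0.12 and −0.16). All 8 MHC class II genes were lower on average, with a median of −1.14, and none reached that level. Cd74, the invariant chain that guides class II molecules, read 4.84, 10.79 and 11.43 against 7.47 to 12.67 (difference −1.99, p = 0.129). Lymphoma 1 had the lowest Cd74 of all 13, and the other 2 arrays were within the Cdkn1a-low range. Without lymphoma 1 the Cd74 difference turned to 0.10. With Cd74 as a covariate, an alternative chosen after seeing the data, Gtse1 differed by 1.35 with an adjusted p of 0.0504.

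**Figure D4:**
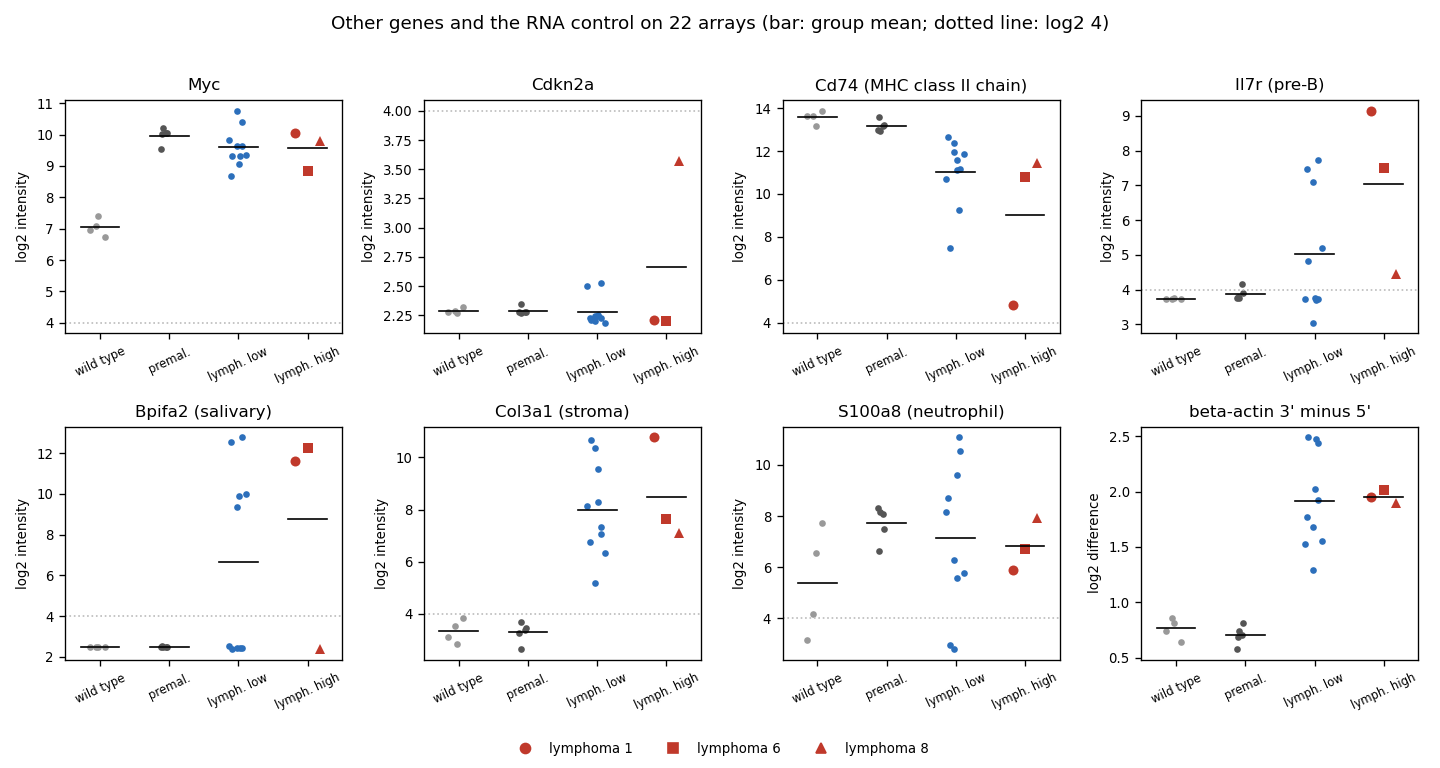
Log2 intensity of Myc, Cdkn2a, Cd74, Il7r and markers of salivary gland, stroma and neutrophils, and the difference between the 3′ and 5′ beta-actin control probe sets, on 22 arrays in 4 groups; bars are group means and the dotted line is log2 4. The 3 Cdkn1a-high lymphomas lie within the range of the Cdkn1a-low ones for Myc, S100a8 and the RNA control. Lymphoma 1 is the highest for Col3a1 and the lowest for Cd74, and lymphoma 8 lacks the salivary marker that lymphomas 1 and 6 have.

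RNA of other cells and RNA quality were read on the same arrays. The beta-actin 3′ minus 5′ difference, which grows as RNA degrades, was 1.90 to 2.01 in the Cdkn1a-high and 1.29 to 2.49 in the Cdkn1a-low lymphomas (difference of means 0.04, exact two-sided permutation p = 0.899 over 286 splits, of which the smallest possible is 0.0035). It was at most 0.86 in wild type and premalignant arrays, so levels set beside those arrays come from RNA with a lower 3′ excess. The Gapdh difference gave an exact permutation p of 0.815. The salivary gland gene Bpifa2 read 11.64 and 12.24 in lymphomas 1 and 6 and 2.38 in lymphoma 8, against 2.38 to 12.79 in the Cdkn1a-low group. Of 10 salivary and exocrine markers, 6 exceeded log2 4 on some Cdkn1a-high array and 1 on all 3, and their mean level was 3.00 to 5.85 against 3.00 to 5.72. The 4 of them that passed the filter had a median difference of 1.89, and 0 were called. Mucl2, a salivary mucin-like gene named after its values were seen, read 7.84, 12.17 and 2.97 against 2.91 to 5.33. With Bpifa2 as a covariate, also chosen after seeing the data, Gtse1 differed by 1.20 (adjusted p = 0.086).

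Of 20 stroma and endothelium markers, 13 exceeded log2 4 on all 3 Cdkn1a-high arrays, and their mean level was 5.11 to 6.19 against 4.76 to 6.13, highest in lymphoma 1. With that mean as a covariate, Gtse1 differed by 1.33 (adjusted p = 0.00621). Of 13 neutrophil markers, 3 exceeded log2 4 on all 3 arrays, among them S100a8 at 5.89, 6.70 and 7.93 against 2.79 to 11.09, and the mean level of the list was 3.45 to 4.04 against 2.91 to 6.56. The 7 neutrophil markers tested all had differences below 0, with a median of −0.83, and 0 were called or reached an unadjusted p under 0.05 with limma. For 15 monocyte and macrophage markers it was 5.71 to 6.31 against 5.30 to 6.48. All 9 natural killer cell markers were under log2 4 on all 13 lymphomas, as were 9 of 12 T cell markers. Thy1, a T cell and stem cell surface protein, read 5.09, 4.14 and 3.07 against 2.66 to 4.40 (difference 1.04, unadjusted p = 0.0195, adjusted p = 0.988), and lymphoma 1 was the 1 array above the Cdkn1a-low range. The part of these cells in the levels of Cdkn1a or of its companions was not tested beyond these covariates.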

How the data were processed

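The authors deposited probe set intensities on a linear scale made with GCRMA, per the submitters' processing notes, with the version not given in the sources used here; log2 was taken here. GCRMA brings arrays to a common distribution, so a shift of all genes is not seen. A table of platform annotation gave 20380 of 22690 probe sets 1 symbol, left 1555 without one and gave 691 more than 1, and 64 were controls; 12369 of 12393 genes matched RefSeq. Each gene was read through its brightest probe set (by the mean of 22 arrays) and kept if above log2 4 on at least 3 of 13 lymphomas, which left 6191. The 13 lymphomas were fitted with limma 3.58.1 (lmFit, eBayes, two-sided) in R 4.3.3. A fold marked "at least" sets values under log2 4 to 4. No depth applies to arrays: 3 against 10 samples limits the precision. Replicate lymphomas came from separate mice.

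The members, gene lists and tests were chosen with earlier results of these data known. Named genes were the p53 targets tested, Cdkn1a, Myc, Cdkn2a and genes whose groups did not overlap (up to 10 a direction, by p). The member with the smallest p of each other list with several members tested was added, 87 in all. Further genes, such as Plk2, Gadd45a, Fas, Epha2, Rag1, Thy1 and S100a8, are given outside that rule. The fit was also run on simulated data with independent normal values for each gene. That run checks the code and does not bear on the call of Gtse1. Alternatives changed the filter, floor, probe sets, centring, fit, covariates and threshold, and left out each lymphoma.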

Additional observations from a re-analysis of the deposited data

Results flagged for a closer look

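Among the 87 named genes, 12 had 1 Cdkn1a-low lymphoma whose gap to the nearest of the other 9 exceeded Dixon's limit for 10 samples; chance gives about 1 in 20.

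Gtse1 was 5.73 in lymphoma 13 against a Cdkn1a-low median of 4.92, which widened the spread of that group and is the array whose removal lowered the adjusted p of Gtse1. Slc19a2 was 4.24 in lymphoma 5 (median 3.10), and Bbc3 was 4.61 in lymphoma 10 (median 3.80). Only Cdkn1a-low lymphomas were searched, so Cdkn1a was not above log2 4 in these by selection.

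Lymphoma 13 was also low for the targets Apaf1, at 4.77 (median 5.73), and Rap2b, at 2.81 (median 4.21). Lymphoma 4 was high for Xpc, at 5.38 (median 4.12), and low for Polk, at 3.73 (median 4.34). Lymphoma 11 was low for Ei24, at 4.89 (median 6.47), and high for Glmp, at 6.90 (median 6.19). Dgat2 was 4.74 in lymphoma 9 (median 4.19), Eef1a2 was 6.06 in lymphoma 2 (median 5.42), and Hdac2 was 5.89 in lymphoma 2 (median 6.86).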

How the results depend on the processing

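Gtse1 was the gene with the smallest p in 27 of the 30 fits run, was called in 9 and kept its direction in all. The number of genes called, 1 as reported and a p53 target, was 0 with no filter (Gtse1's adjusted p = 0.095), with median centring (0.0533), with centring on the hybridisation spikes (0.113), with trend and robust variance (0.0553), with beta-actin (0.0843), Bpifa2 (0.086) or Cd74 (0.0504) as a covariate, and with Cdkn1a as a continuous level (0.0785). It was 5 genes, 4 of them p53 targets, in 1 fit over 4 groups. Among them were Zmat3, which entered only through the Cdkn1a-high arrays, and Slc19a2, which would not have entered without them. With the Cdkn1a threshold at log2 5, where lymphoma 1 alone is set against 12 arrays and is assumed to vary like them, 57 genes were called (39 higher, 18 lower) and 0 p53 targets; these values describe that array and no group. Leaving out each lymphoma gave 0 to 1 genes and 0 to 1 p53 targets; without replicate 8 the 1 called gene was Mucl2, and without replicate 1 the counts at an unadjusted p under 0.05 were 60 higher and 21 lower. In those fits 0 p53 targets were lower at an unadjusted p under 0.05 and 5 to 9 were higher, on arrays that the fits mostly share. These counts of higher targets, and those that follow, include Zmat3 and Slc19a2, which needed the Cdkn1a-high arrays to pass the filter. The counts over all genes moved as well. Without replicate 8, 5 targets were higher beside 267 of all genes, with 178 genes lower. Without replicate 1 there were 9 targets, beside the 60 and 21 genes above. Spike centring moved the median of all genes from 0.02 to 0.39 and gave 532 genes higher and 0 lower at an unadjusted p under 0.05, so the share of higher genes depends on the centring. Dgat2 turned to 0.038 under it. At a threshold of log2 5, with lymphoma 1 alone above it, Ccng1 turned to −0.21, Higd1a to −0.33 and Hsp90b1 to −0.049. These differences describe that array, and the cause was not tested. A threshold at log2 3 could not be run, since all 13 lymphomas exceed it. No paired analysis was possible because both groups are lymphomas of 1 labelled group and share no replicate number. The number of Cdkn1a-high arrays, 3, limits what these fits can call.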
